A study of Mus musculus with 12 samples.

Results

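The immunity-related GTPases (IRGs) described here were 6 mouse genes, Irgm1, Irgm2, Igtp, Iigp1, Tgtp1 and Tgtp2, taken by gene symbol from the 55401 genes of an RNA-seq table of bone marrow mesenchymal stem cells (MSCs). They were selected on measured values of these libraries, because Tgtp1 and Tgtp2 were higher in MSCs given the supernatant of monocytic myeloid-derived suppressor cells (M-MDSCs) than in MSCs given that of granulocytic ones (G-MDSCs). That contrast is therefore given as a description, without a test. The MSCs were purchased cells from the bone marrow of C57BL/6 mice, a wild-type inbred strain. The 4 groups had 3 libraries each. Untreated MSCs received nothing, and a second group received TGF-β1 at 5 ng/mL, a cytokine that drives MSCs toward myofibroblasts. The remaining groups received supernatant of M-MDSCs or of G-MDSCs together with the same dose of TGF-β1, for a day. The MDSCs were made from mouse bone marrow cells with GM-CSF and IL-6, and sorted as CD11b+Ly6G-Ly6C high (M-MDSC) or CD11b+Ly6G+Ly6C low (G-MDSC) cells. No group received supernatant without TGF-β1 or supernatant of any other cell, so what is particular to MDSC products cannot be told apart from what any conditioned medium would do.

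IRGs are GTPases whose genes are switched on by interferons, in mice above all by interferon-γ. They guard cells of many types, fibroblasts included, against bacteria and protozoa that live in vacuoles. The family has a regulator class, named GMS after a methionine in the nucleotide-binding loop, and an effector class, named GKS after the lysine that most GTPases have at that place. The regulators Irgm1, Irgm2 and Igtp (also called Irgm3) sit on membranes of the cell itself and keep the effectors in the inactive, GDP-bound state. The effectors Iigp1 (Irga6) and Tgtp1 and Tgtp2 (both Irgb6) load onto the vacuole of the invader and break it open.

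The nucleotide-binding loops are shown because they carry the difference that names the classes and because they show how nearly alike some members are. Each line gives coding bases read from the GENCODE M21 transcripts (GRCm38), 5′ to 3′, with the codon of the methionine or lysine in capitals.
Irgm1: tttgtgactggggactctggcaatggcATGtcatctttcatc
Irgm2: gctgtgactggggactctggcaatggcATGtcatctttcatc
Igtp: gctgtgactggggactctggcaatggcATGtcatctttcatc
Tgtp1: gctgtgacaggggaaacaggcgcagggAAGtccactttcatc
Tgtp2: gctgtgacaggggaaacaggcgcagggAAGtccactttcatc
The 3 regulators had the methionine codon ATG and both Tgtp genes the lysine codon AAG. Iigp1, whose sequence is not printed, also had the lysine codon. The windows of Irgm2 and Igtp were identical, as were those of Tgtp1 and Tgtp2. Over the whole coding sequence, Tgtp1 and Tgtp2 differed at 4 of 1245 bases, and their 415 residues were the same. The regulators shared 48.4 to 54.3% of aligned residues with each other, Iigp1 shared 45.6% with the Tgtp proteins, and regulators and effectors shared 29.8 to 33.9%.

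Promoters are shown because the members moved together and because interferon signalling ends at short promoter motifs. The interferon-stimulated response element (ISRE) is bound by IRF proteins and complexes that contain them, and the gamma-activated site (GAS) is the element through which interferon-γ acts most directly. In the RefSeq windows from 250 bases before to 50 after each start site (GRCm38.p6), available for 5 of the 6 members, both strands were searched for an ISRE core, GAAANNGAAA, and a GAS, TTCNNNGAA. The matches are in capitals below, 5′ to 3′ in the direction of transcription.
Irgm1, chr11:48871420-48871465, minus strand: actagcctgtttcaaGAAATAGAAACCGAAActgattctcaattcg
Irgm2, chr11:58214887-58214937, plus strand: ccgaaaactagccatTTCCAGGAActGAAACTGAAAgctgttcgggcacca
Igtp, chr11:58199496-58199546, plus strand: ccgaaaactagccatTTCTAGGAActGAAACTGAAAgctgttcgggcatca
Tgtp1, chr11:48992299-48992349, minus strand: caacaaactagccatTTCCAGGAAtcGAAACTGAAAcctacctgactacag
Tgtp2, chr11:49064258-49064308, minus strand: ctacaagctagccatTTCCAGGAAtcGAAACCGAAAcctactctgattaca
All 5 windows held an ISRE core, which 3.44% of the 32851 RefSeq windows held. Irgm1 had a pair of overlapping ISRE cores and no GAS. Each of the other 4 had a single GAS, found in 8.3% of all windows, and in each of them the GAS ended 2 bases before the ISRE core. This arrangement, looked for after these windows had been read, was present in 5 of the 32851 windows (0.0152%), namely those of Irgm2, Igtp, Tgtp1, Tgtp2 and a further IRG family gene, Gm12185. Related genes share ancestry, so these matches are not independent of each other: the windows of Irgm2 and Igtp were identical at 244 of 265 aligned bases (92.1%), and those of Tgtp1 and Tgtp2 at 211 of 285 (74%). A match says where the letters stand and not that a factor was bound in MSCs. The stretches of Irgm1, Irgm2 and Tgtp1 lie inside the bounds of the genes as counted, so transcripts starting further upstream were not covered.

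**Figure D1:**
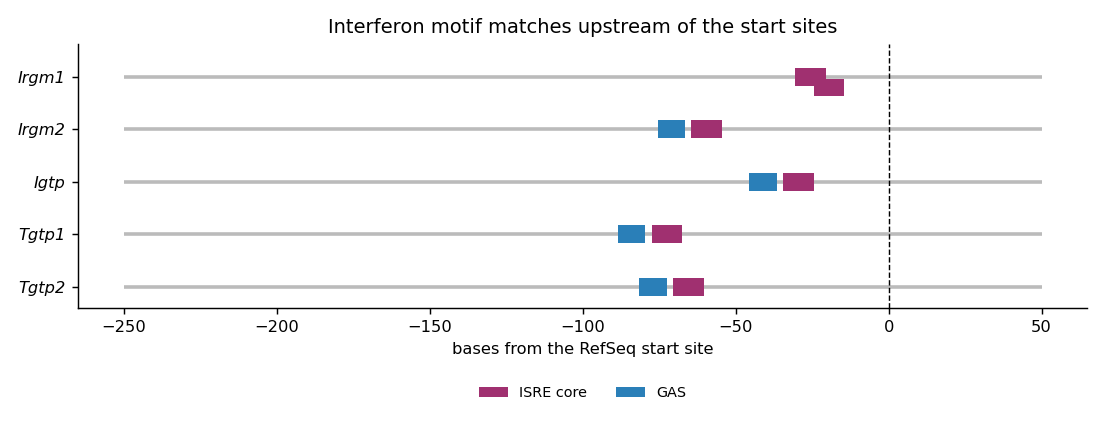
Position of ISRE core and GAS matches in the RefSeq promoter windows of 5 IRG genes (x axis, bases from the start site, dashed line; 1 gene a line; overlapping matches are drawn offset). In Irgm2, Igtp, Tgtp1 and Tgtp2 the GAS (blue) stands 2 bases upstream of the ISRE core (purple), and Irgm1 has 2 overlapping ISRE cores.

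Libraries held 73977669 to 84565450 counts, and between 19198 and 20448 genes had more than 3 counts. Levels are given as FPKM (fragments per kilobase of transcript, scaled for sequencing depth), as the authors calculated them, and tests were run on the counts. A gene was tested if it reached an FPKM of 1 in at least 3 libraries, which 12016 genes did. All 6 members passed, although Iigp1 reached 1 in only 4 libraries, 3 of them from the M-MDSC group, and would not have passed without that group. A gene let in by the group where it is high had to differ from the others. For each supernatant, members and list genes are therefore counted over those that reached this level in the untreated and TGF-β1 libraries alone, 5 of the 6 members, with values of Iigp1 beside them. Of these 5 only Irgm1 reached it in the TGF-β1 libraries themselves, so falls with TGF-β1 are counted only over genes that reached it in all 3 TGF-β1 libraries.

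Close copies limited how well single members could be read. Of all 150-base stretches of Tgtp1 exons, the length of 1 read, 62.5% also occurred in Tgtp2, and 68.4% of those of Tgtp2 occurred in Tgtp1. How reads that fit both were assigned is not given in the sources used here, so both genes are also given as a sum, and the split between them is uncertain. Tgtp1 took 55.6 to 67.5% of the summed counts in the 12 libraries. Irgm2 and Igtp shared 0.437% and 0.739% of their stretches, and the annotated first exon of Irgm2 overlaps Igtp by 162 bases (chr11:58199618-58199779, plus strand). Irgm1 and Iigp1 shared no stretch of that length with any other gene.

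Irgm1 (ENSMUSG00000046879, chr11:48861968-48871683, minus strand), a regulator found on Golgi and lysosomal membranes, was the most abundant member. Its FPKM was 17.5, 18.8 and 18.7 in untreated MSCs, 13.8, 14.0 and 13.7 with TGF-β1, 38.9, 40.3 and 38.3 with G-MDSC supernatant, and 49.5, 53.4 and 52.0 with M-MDSC supernatant. The 4 groups were separate, with TGF-β1 alone lowest and M-MDSC supernatant highest. Igtp (ENSMUSG00000078853, chr11:58199556-58207591, plus strand), a regulator of the endoplasmic reticulum, had the same order from lower levels. Its FPKM was 3.12, 2.66 and 3.79 untreated, 0.695, 0.609 and 0.528 with TGF-β1, 9.13, 10.1 and 8.05 with G-MDSC supernatant, and 14.1, 14.1 and 15.4 with M-MDSC supernatant. Again no 2 groups overlapped.

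Irgm2 (ENSMUSG00000069874, chr11:58199618-58222782, plus strand), a Golgi regulator, had 1 library that stood apart. Its FPKM was 2.13, 1.61 and 1.78 untreated, 0.282, 0.410 and 0.276 with TGF-β1, and 5.77, 4.99 and 5.82 with G-MDSC supernatant. With M-MDSC supernatant it was 7.60, 8.12 and 1.86, so replicate 3 of that group lay at the untreated level while the other 2 libraries were above all G-MDSC libraries. The counts behind these values were 2332, 2473 and 595. The neighbouring Igtp was not low in replicate 3 (15.4). In that library 104 of the 12016 tested genes were under 0.5 times both other replicates, within the 88 to 113 of all libraries, while 137 genes were over 2 times both others, against 47 to 88 in the other 11 libraries. Each Irgm2 result that uses this group is given with and without it.

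Among the effectors, Iigp1 (ENSMUSG00000054072, chromosome 18, 60376027-60392634, plus strand) was the member nearest to silence with TGF-β1. Its FPKM was 0.937, 0.868 and 1.196 untreated, 0.794, 0.664 and 0.648 with G-MDSC supernatant, and 1.46, 1.63 and 1.71 with M-MDSC supernatant. With TGF-β1 alone it had 11, 12 and 0 counts, an FPKM of 0.0208 and 0.0212 in the first 2 libraries. The 0 allows up to 3 counts by counting error alone. Untreated libraries had 467 to 625 counts.

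Tgtp1 (ENSMUSG00000078922, chr11:48985327-48994172, minus strand) had FPKM of 1.93, 2.03 and 2.11 untreated, 0.202, 0.205 and 0.232 with TGF-β1, 1.46, 1.58 and 1.49 with G-MDSC supernatant, and 3.15, 4.08 and 3.75 with M-MDSC supernatant. Tgtp2 (ENSMUSG00000078921, chr11:49057194-49064206, minus strand) had FPKM of 1.16, 1.07 and 1.43 untreated, 0.133, 0.173 and 0.124 with TGF-β1, 0.962, 1.19 and 0.963 with G-MDSC supernatant, and 2.51, 2.92 and 2.65 with M-MDSC supernatant. The copies followed each other in all 4 groups. Their sum was 3.09, 3.10 and 3.54 untreated, 0.335, 0.377 and 0.356 with TGF-β1, 2.42, 2.77 and 2.45 with G-MDSC supernatant, and 5.67, 7.00 and 6.398 with M-MDSC supernatant. For the effectors the G-MDSC group thus lay below the untreated group, whereas for the regulators it lay above. Of all neighbours in the order of the groups, ranges met only for G-MDSC and untreated in Tgtp2 and for G-MDSC and M-MDSC in Irgm2.

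**Figure D2:**
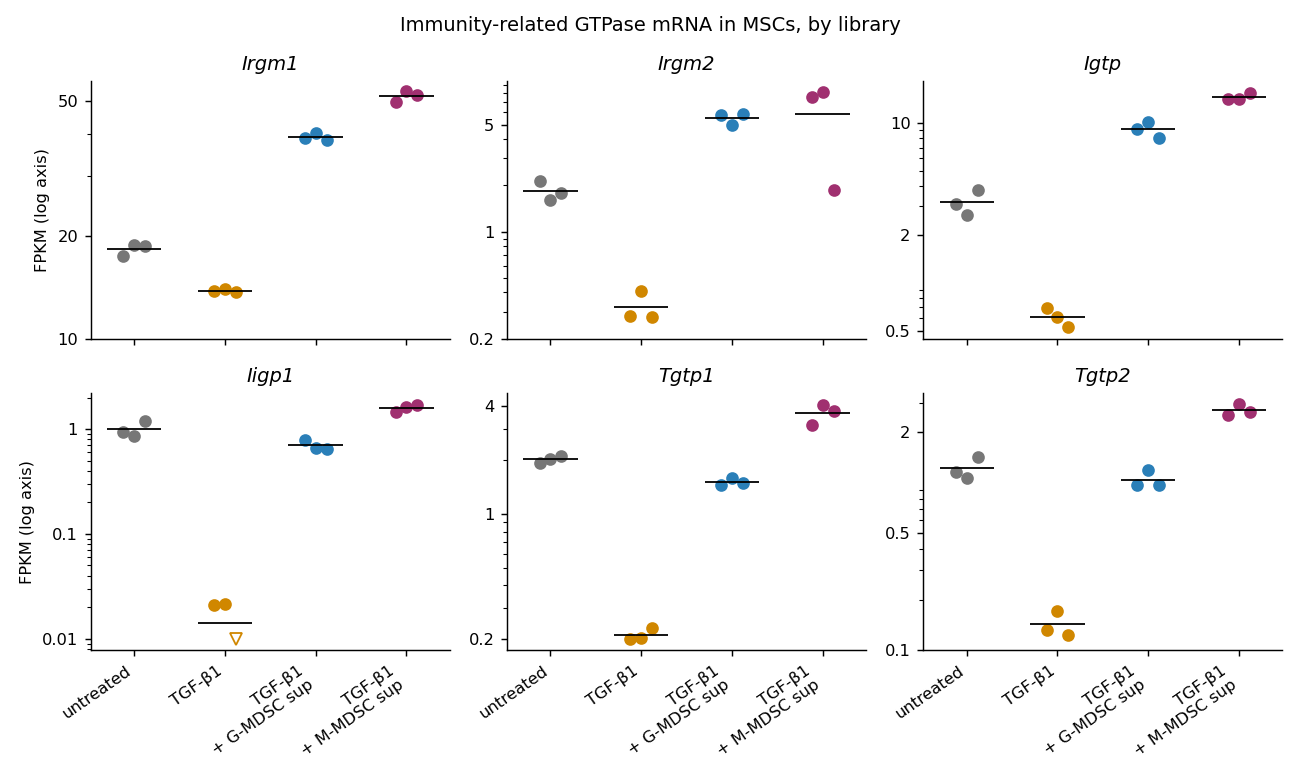
FPKM of each IRG gene (y axes, log scale, different in each panel) in the 3 libraries (points) of each group, with the group mean as a line. TGF-β1 alone is lowest and M-MDSC supernatant highest by mean in all panels, Irgm2 has 1 low M-MDSC library (1.86), and the open triangle marks the Iigp1 library with 0 counts, drawn at 0.01.

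TGF-β1 lowered the members. Mean FPKM fell to 75.3% of the untreated level for Irgm1, 17.5% for Irgm2, 19.1% for Igtp, 10.5% for Tgtp1, 11.7% for Tgtp2 and 1.40% for Iigp1. In edgeR's quasi-likelihood test the log2 fold changes were -0.35 ± 0.041 for Irgm1 (SE, adjusted p = 6.52e-05), -2.45 ± 0.457 for Irgm2 (0.00177), -2.32 ± 0.150 for Igtp (6.95e-07), -6.02 ± 0.523 for Iigp1 (6.83e-06), -3.18 ± 0.119 for Tgtp1 (1.16e-08) and -2.99 ± 0.181 for Tgtp2 (4.25e-07). The sum of the Tgtp genes fell by 3.11 on the log2 scale (SE 0.109, adjusted p = 6.91e-09). Of all tested genes, 17.9% were called lower in this comparison and 16.1% higher. No count or median over the members is set against these shares, since Irgm1 alone was at the level of the filter with TGF-β1. With no filter on level, where a gene needed only 1 count to be tested, the adjusted p of the 6 members in edgeR ran from 1.47e-08 (Tgtp1) to 0.00258 (Irgm2). The labels do not say that libraries came from separate cultures, so p-values measure the spread between these samples, which may be technical. In bulk RNA, fewer cells expressing a gene and less RNA per cell cannot be told apart.

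With either supernatant, given with TGF-β1, the 3 regulators rose above TGF-β1 alone. The Tgtp genes were picked for M-MDSC values above their G-MDSC values, so with M-MDSC supernatant theirs are a description with no test. With G-MDSC supernatant they are tested, since a choice for low values there does not favour a rise. With M-MDSC supernatant, the regulator Irgm1 rose by a log2 fold change of 1.88 ± 0.043 (SE, edgeR, adjusted p = 7.10e-10) and Igtp by 4.54 ± 0.161 (1.93e-08). Irgm2 rose by 4.15 ± 0.483 (0.000423), and by 4.58 without the low library (2.75e-07). Of the effectors, Tgtp1 was at 4.07 ± 0.122, Tgtp2 at 4.17 ± 0.188 and the Tgtp sum at 4.11 ± 0.113. Iigp1, let in by the M-MDSC group, stood at 6.73 ± 0.532, and at 6.75 in a fit of all genes with any count and no filter on level (edgeR, adjusted p = 1.35e-05). Over all tested genes 2.83% were called higher and 1.95% lower. The median over all tested genes was -0.013.

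With G-MDSC supernatant, Irgm1 rose by 1.48 ± 0.042 against TGF-β1 alone (log2, SE, edgeR, adjusted p = 5.82e-09), Irgm2 by 4.06 ± 0.481 (0.000503), Igtp by 3.86 ± 0.157 (8.85e-08), Tgtp1 by 2.79 ± 0.117 (1.01e-07) and Tgtp2 by 2.79 ± 0.180 (3.19e-06). The Tgtp sum rose by 2.79 ± 0.108 (6.24e-08), and Iigp1 stood at 5.54 ± 0.519 (5.55 with no filter on level, 7.11e-05). In this comparison 3.1% of tested genes were called higher and 2.46% lower. The median was 2.79 over the 5 members other than Iigp1 and -0.014 over all tested genes. Both supernatant comparisons share the same TGF-β1 libraries and are therefore not independent of each other.

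**Figure D3:**
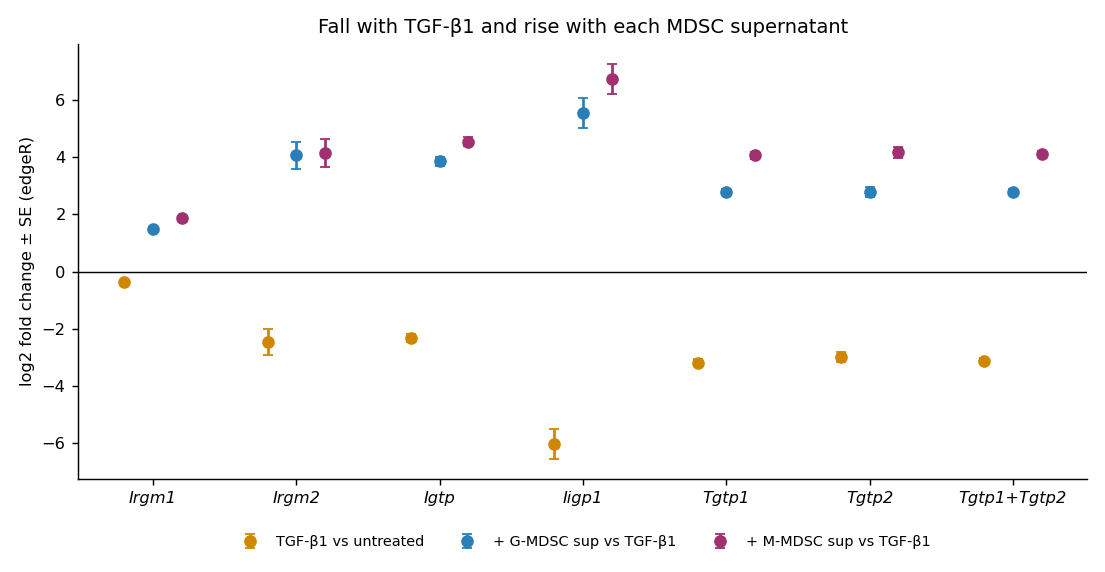
Log2 fold change with its SE (y axis, edgeR) of each IRG gene and of the Tgtp sum (x axis) for TGF-β1 against untreated, G-MDSC supernatant against TGF-β1 and M-MDSC supernatant against TGF-β1. All points of the first comparison lie below 0 and all of the others above, with Irgm1 the smallest (-0.35, 1.48 and 1.88) and Iigp1 the largest (-6.02, 5.54 and 6.73) of the 6.

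Markers of kidney tubule cells moved with the supernatants and are given here because of it. Of 11 such markers, 4 (Kap, Umod, Miox and Slc34a1) passed the filter on level, all through the supernatant groups alone, so their values are a description. The list of 11 summed to an FPKM of 0.388 to 0.509 in untreated libraries and 0.518 to 0.600 with TGF-β1, but 12.8 to 79.7 with M-MDSC and 44.2 to 58.1 with G-MDSC supernatant. The 79.7 was replicate 3 of the M-MDSC group, the library in which Irgm2 was low. Kap, a kidney androgen-regulated protein, had no count in the untreated and TGF-β1 libraries, and FPKM of 45.2 ± 7.30 with G-MDSC and 30.5 ± 33.6 with M-MDSC supernatant (SD, n = 3). MDSC and other myeloid markers, 14 in all, summed to 26.9 to 28.0 untreated, 13.8 to 15.8 with TGF-β1, 20.7 to 26.5 with M-MDSC and 26.9 to 29.5 with G-MDSC supernatant, mostly from Cd14. Cd14 was called higher with each supernatant, by 0.54 with M-MDSC (edgeR, adjusted p = 0.00178) and 0.68 with G-MDSC (0.000338), as 1 of 4 that passed without the supernatant groups. Over all tested genes the shares called higher were 2.83% with M-MDSC and 3.1% with G-MDSC supernatant. Lyz2, the lysozyme of myeloid cells, went from a mean FPKM of 0.0573 with TGF-β1 to 1.54 ± 0.828 with M-MDSC and 1.87 ± 0.281 with G-MDSC supernatant. S100a9, a neutrophil and monocyte protein, had no count in the untreated and TGF-β1 libraries and a mean of 0.576 ± 0.369 with M-MDSC and 1.13 ± 1.96 with G-MDSC supernatant (SD, n = 3), the latter from 1 library of 160 counts. Ly6g and Ly6c2, by whose proteins the MDSCs were sorted, were highest in untreated MSCs, at a mean FPKM of 1.84 and 1.71. They were at 0.0681 and 0.0450 with TGF-β1, 0.0619 and 0.148 with M-MDSC and 0.126 and 0.211 with G-MDSC supernatant, and edgeR called neither with a supernatant (DESeq2 called Ly6c2 with G-MDSC supernatant, at 2.18, adjusted p = 0.0248). Csf1r, the receptor of a monocyte growth factor, was not called either (0.04 with M-MDSC and 0.18 with G-MDSC supernatant, edgeR, adjusted p = 0.942 and 0.691). Of the other defining ones, Mpo and Elane had 0 counts in all 12 libraries, and Itgam (CD11b) had a mean FPKM of 0.0310 with M-MDSC and 0.0501 with G-MDSC supernatant. The part of these transcripts in the IRG results was not tested.

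Against untreated MSCs, members were set on the level before TGF-β1. With G-MDSC supernatant, regulators were above the untreated level, by 1.13 ± 0.042 for Irgm1 (log2, SE, edgeR, adjusted p = 1.23e-08), 1.62 ± 0.426 for Irgm2 (0.0131) and 1.54 ± 0.14 for Igtp (9.87e-06). Of all tested genes, 16.4% were called higher and 18.4% lower. The Tgtp genes were picked for being lower with G-MDSC than with M-MDSC supernatant, a difference larger than theirs from untreated, so their values against untreated are a description with no test. They were -0.39 ± 0.106 for Tgtp1, -0.20 ± 0.162 for Tgtp2 and -0.32 ± 0.098 for the sum. Iigp1, at -0.48 ± 0.380 (edgeR, adjusted p = 0.377), did not pass. The difference between regulators and effectors was not tested.

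With M-MDSC supernatant, the 3 regulators were above untreated MSCs in the test, where 16.4% of tested genes were called higher and 18.9% lower. The log2 fold changes were 1.53 ± 0.042 for Irgm1 (SE, edgeR, adjusted p = 1.61e-09) and 2.22 ± 0.143 for Igtp (6.71e-07). Irgm2 was higher by 1.71 ± 0.427 (0.00993) and, without its low library, by 2.13 (1.04e-05). It missed the threshold when only these 2 groups were fitted (0.0508). Iigp1, at 0.71 ± 0.379 (0.179), did not pass, although all 3 M-MDSC libraries were above all 3 untreated ones. All 4 groups share 1 estimate of the spread, and without the TGF-β1 library at 0 counts the value was 0.72. Iigp1 was let in by the M-MDSC group, so these values are a description. The Tgtp values, again a description with no test, were 0.89 ± 0.106 for Tgtp1, 1.18 ± 0.163 for Tgtp2 and 1.00 ± 0.098 for the sum.

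**Figure D4:**
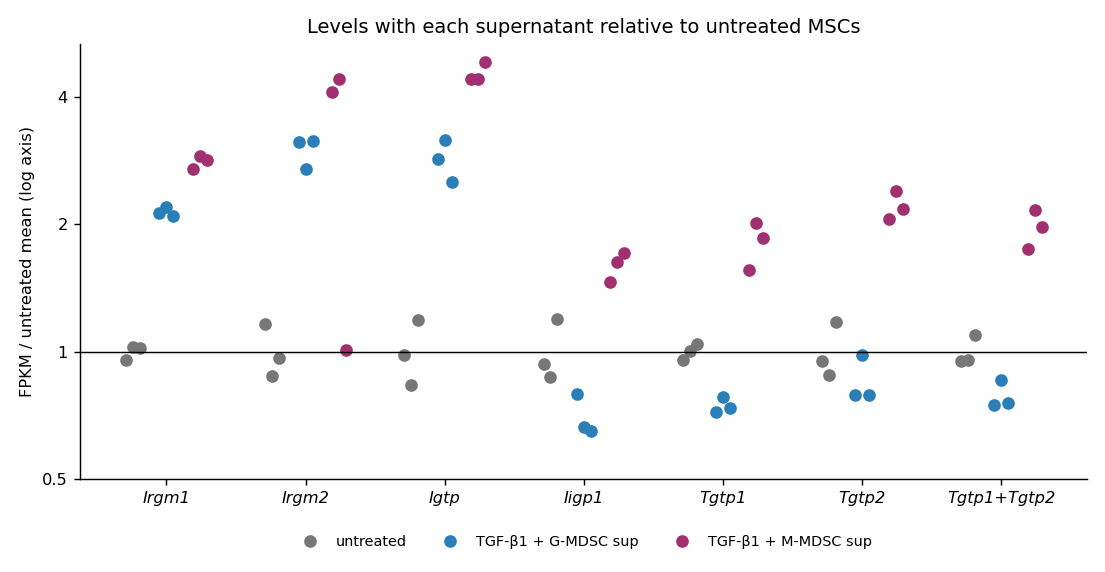
FPKM of each library divided by the untreated mean of the same gene (y axis, log scale) for untreated MSCs and for both supernatant groups, with the Tgtp genes also summed. Regulators (Irgm1, Irgm2, Igtp) lie above every untreated library with both supernatants save for the low Irgm2 library, which lies at the untreated mean, whereas G-MDSC libraries of Iigp1, Tgtp1 and the Tgtp sum lie below every untreated library.

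M-MDSC over G-MDSC supernatant is the contrast on which the members were picked, and its values are descriptive. The ratio of mean FPKM was 2.43 for Tgtp1, 2.59 for Tgtp2 and 2.50 for their sum. It was 2.28 for Iigp1, 1.60 for Igtp, 1.32 for Irgm1 and 1.06 for Irgm2, or 1.42 for Irgm2 without the low library. The single M-MDSC libraries were 2.22, 2.75 and 2.51 times the G-MDSC mean for the Tgtp sum. Effector ratios thus ran from 2.28 to 2.59 and regulator ratios from 1.06 to 1.60. On the log2 scale the fitted differences were 1.28 ± 0.107 for Tgtp1, 1.38 ± 0.164 for Tgtp2, 1.32 ± 0.099 for the sum, 1.19 ± 0.383 for Iigp1, 0.68 ± 0.136 for Igtp, 0.40 ± 0.041 for Irgm1 and 0.09 ± 0.413 for Irgm2 (SE). M-MDSC libraries lay above G-MDSC libraries without overlap for 5 of the 6 members, Irgm2 being the exception, and for 5.97% of all tested genes. The median over the 5 members without Iigp1 was 0.68, against 7.0e-05 over all tested genes.

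Most other genes of the IRG family were too low to test. Of 16 symbols listed, 11 were found and the other 5 are, in RefSeq (GRCm38.p6), further names of these genes or of Iigp1. Of the 11, 3 passed the filter on level: 9930111J21Rik1 and 9930111J21Rik2, a pair of neighbouring IRG-like genes, and Irgq, a distant relative. The first passed only with the supernatant groups included. The other 2 rose with TGF-β1, where 16.1% of all tested genes did, although limma on log2(FPKM + 1) called only 1 of the 3. The log2 fold changes were 1.2 ± 0.205 for 9930111J21Rik2 (SE, edgeR, adjusted p = 0.000975), 0.26 ± 0.071 for Irgq (0.0167) and, not counted, 1.27 ± 0.394 for 9930111J21Rik1. With M-MDSC supernatant none of the 3 was called, at -0.09 for 9930111J21Rik1, -0.31 for 9930111J21Rik2 and -0.21 for Irgq (adjusted p from edgeR 0.948, 0.485 and 0.148), 1 of them having an unadjusted p under 0.05, and DESeq2 and limma called none. With G-MDSC supernatant Irgq was lower (-0.35, adjusted p = 0.0159), and the Rik pair was at 0.01 and -0.14 and did not pass. The promoter windows of 9930111J21Rik2 and Irgq held neither motif, and that of 9930111J21Rik1 held an ISRE core and no GAS. Of 7 more with any count, all under the level filter, 2 had their lowest mean FPKM with TGF-β1 and their highest with M-MDSC supernatant, Gm4951 and Gm12185. Gm12250, whose promoter window held 2 ISRE cores and 1 GAS, was highest with G-MDSC supernatant (0.121, against 0.0662 with M-MDSC). So was Gm12187, with 8 counts over all libraries. Gm4841 (0.0808) and F830016B08Rik (0.0381) were highest untreated. Gm5431, whose window held neither motif, was highest with TGF-β1 alone (0.0763, against 0.0588 with M-MDSC and 0.0569 with G-MDSC supernatant). Gm4951, the most abundant of the 7, had an FPKM of 0.213, 0.234 and 0.122 untreated, no count in the 3 libraries with TGF-β1 alone, 0.316, 0.322 and 0.201 with G-MDSC and 0.545, 0.578 and 0.676 with M-MDSC supernatant. Its M-MDSC libraries were above all others. Gm12185, with the joined GAS and ISRE core, stayed under the level filter at a mean FPKM of 0.110 ± 0.040 untreated, 0.0988 ± 0.022 with TGF-β1, 0.123 ± 0.034 with G-MDSC and 0.199 ± 0.056 with M-MDSC supernatant (SD, n = 3). It overlaps Tgtp1 by 223 exonic bases on the same strand. Irgc1, a testis gene, had 0 counts in all libraries.

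Guanylate binding proteins (GBPs), larger interferon-inducible GTPases that act on the same vacuoles as IRGs, rose with both supernatants. Of 11 listed, 4 (Gbp2, Gbp2b, Gbp3 and Gbp9) passed the filter without the supernatant groups. All 4 rose with each supernatant, as did 2.83% (M-MDSC) and 3.1% (G-MDSC) of all tested genes. None of the 4 was at that level in a TGF-β1 library, so their falls with TGF-β1 are not counted. With no filter on level the adjusted p of these falls in edgeR was 1.04e-07 to 4.02e-07. Gbp7, let in by the supernatant groups, was at -2.90 with TGF-β1 and then 4.55 with M-MDSC and 3.90 with G-MDSC supernatant. Gbp3 had a mean FPKM of 3.30 ± 0.492 untreated, 0.619 ± 0.092 with TGF-β1, 15.2 ± 0.741 with G-MDSC and 25.0 ± 0.891 with M-MDSC supernatant (SD, n = 3). Its log2 fold change was -2.35 with TGF-β1, then 5.31 with M-MDSC (edgeR, adjusted p = 2.09e-09) and 4.59 with G-MDSC supernatant (6.84e-09) against TGF-β1. In the same order Gbp2 was at -2.08, 2.81 and 2.36, Gbp2b at -2.59, 3.09 and 2.52 and Gbp9 at -2.83, 3.28 and 2.89, all 3 called with each supernatant. The medians of the 4 were 3.19 with M-MDSC and 2.71 with G-MDSC supernatant. Gbp11 had 0 counts.

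The autophagy conjugation proteins, which are needed for IRGs to load onto the right membrane, were not called with the supernatants. Of 13 tested, 0 were called with either supernatant by edgeR, DESeq2 or limma, a count near the share of all tested genes (with M-MDSC 2.83% higher and 1.95% lower, with G-MDSC 3.1% and 2.46%). At the same time 3 with M-MDSC and 1 with G-MDSC supernatant had an unadjusted p under 0.05 in edgeR. List medians were -0.044 with M-MDSC and -0.021 with G-MDSC supernatant. The most abundant with M-MDSC supernatant were Sqstm1 at 0.01, Gabarap at -0.15 and Gabarapl1 and Map1lc3a, both at -0.13. With TGF-β1 alone Sqstm1, an autophagy receptor, rose by 0.32 (adjusted p = 0.000125), and 3 genes fell, among them Gabarapl1 (-0.18, 0.0180) and Map1lc3a (-0.40, 0.00108). Of all tested genes, 16.1% were called higher and 17.9% lower in that comparison. Of 4 tested genes listed for ubiquitin tagging of vacuoles, Trim21 and Rnf213 rose with both supernatants, at 2.76 and 3.53 with M-MDSC (adjusted p 1.75e-08 and 9.58e-07) and 2.46 and 3.08 with G-MDSC supernatant. With TGF-β1, Rnf213 had fallen by 1.17. Trim21, under the level of the filter there and so not counted, was at -1.63. Nedd4 and Traf6 were not called with either supernatant.

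Interferon genes themselves were scarcely detected. None of 14 ligands reached the level filter, and 10 of them, Ifng and Ifnb1 included, had 0 counts in all 12 libraries, each of which allows up to 3 counts. Their summed FPKM was at most 0.136 in any library. Receptors and their kinases were present. Of these, 0 of 8 tested were called with either supernatant by edgeR, again near the share of all tested genes just given, with medians of 0.0028 and 0.058. In edgeR 1 had an unadjusted p under 0.05 with each, and with G-MDSC supernatant DESeq2 and limma called 1. Jak1, the kinase shared by all interferon receptors, was at 20.7 ± 0.517 FPKM with TGF-β1, 22.0 ± 1.11 with G-MDSC and 21.9 ± 0.318 with M-MDSC supernatant (SD, n = 3). It had fallen with TGF-β1 by 0.36 on the log2 scale (edgeR, adjusted p = 6.38e-05).

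Transcription factors of the interferon response did move. Of 7 that passed the filter without the supernatant groups, 3 rose with M-MDSC and 4 with G-MDSC supernatant, as did 2.83% and 3.1% of all tested genes. Of 6 that reached the level with TGF-β1 itself, 4 fell with it, where 17.9% of all tested genes did. The 3 were Stat2, Irf7 and Irf9, and Stat3 was the other with G-MDSC supernatant. Nlrc5, let in by the supernatant groups, is not counted, nor is Mx2 among the targets described next. Irf7 had a mean FPKM of 3.52 ± 0.499 untreated, 0.961 ± 0.217 with TGF-β1, 13.7 ± 0.660 with G-MDSC and 22.8 ± 0.471 with M-MDSC supernatant. Irf9 and Stat2, parts of the ISRE-binding complex, rose with M-MDSC supernatant by 2.56 (edgeR, adjusted p = 1.93e-08) and 2.39 (2.23e-08), and with G-MDSC supernatant by 2.17 and 2.04. Irf1, an early interferon-γ target that itself binds ISRE motifs, had a log2 fold change of -1.2 with TGF-β1 (adjusted p = 0.00134) and did not pass with supernatant, at 0.59 (0.186) with M-MDSC and 0.38 (0.430) with G-MDSC.

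Targets were listed by the interferon that mainly drives them. Of 9 targets led by type I interferon that passed the filter without the supernatant groups, 8 rose with each supernatant (2.83% and 3.1% of all tested genes), with medians of 4.01 with M-MDSC and 3.31 with G-MDSC supernatant. Of 6 at that level in the TGF-β1 libraries, 5 fell with TGF-β1 (17.9% of all tested genes). Isg15, a ubiquitin-like modifier, went from an FPKM of 7.32 ± 0.787 with TGF-β1 to 73.7 ± 5.45 with G-MDSC and 119.7 ± 2.75 with M-MDSC supernatant (SD, n = 3). Usp18, which takes Isg15 off its substrates and damps the type I receptor, went from 1.08 ± 0.347 to 49.3 ± 1.64 and 72.7 ± 1.59. Of 12 targets led by interferon-γ, Irf1 and Cxcl10 passed the level filter without the supernatant groups, and Cxcl10 rose with both, 2.83-fold with M-MDSC (edgeR, adjusted p = 8.40e-05) and 2.29-fold with G-MDSC supernatant (0.000501). Cd74, the invariant chain of MHC class II, was let in by the supernatant groups, with a mean FPKM of 0.0347 with TGF-β1, 1.15 with G-MDSC and 1.21 with M-MDSC supernatant. Cxcl10, a chemokine, stayed below its untreated FPKM of 3.67 ± 0.208, at 1.18 to 1.45 with G-MDSC and a mean of 1.60 ± 0.125 with M-MDSC supernatant, after 0.552 ± 0.098 with TGF-β1. The other 9 did not pass the filter, and 8 of them had a higher mean with M-MDSC and 7 with G-MDSC supernatant than with TGF-β1 alone. Among these were Cd274 (PD-L1), from 0.275 to 0.768 with M-MDSC and 0.588 with G-MDSC supernatant, and the class II genes H2-Aa and H2-Eb1, from no count to 0.154 and 0.186 with M-MDSC supernatant. Ciita, Cxcl9, Ido1 and Nos2 stayed under 0.04 in every group mean. Of the feedback inhibitors, 2 of 6 tested rose with each supernatant, Usp18 and, by 0.31 (adjusted p = 0.00497) with M-MDSC and 0.42 (0.000612) with G-MDSC, Socs3.

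**Figure D5:**
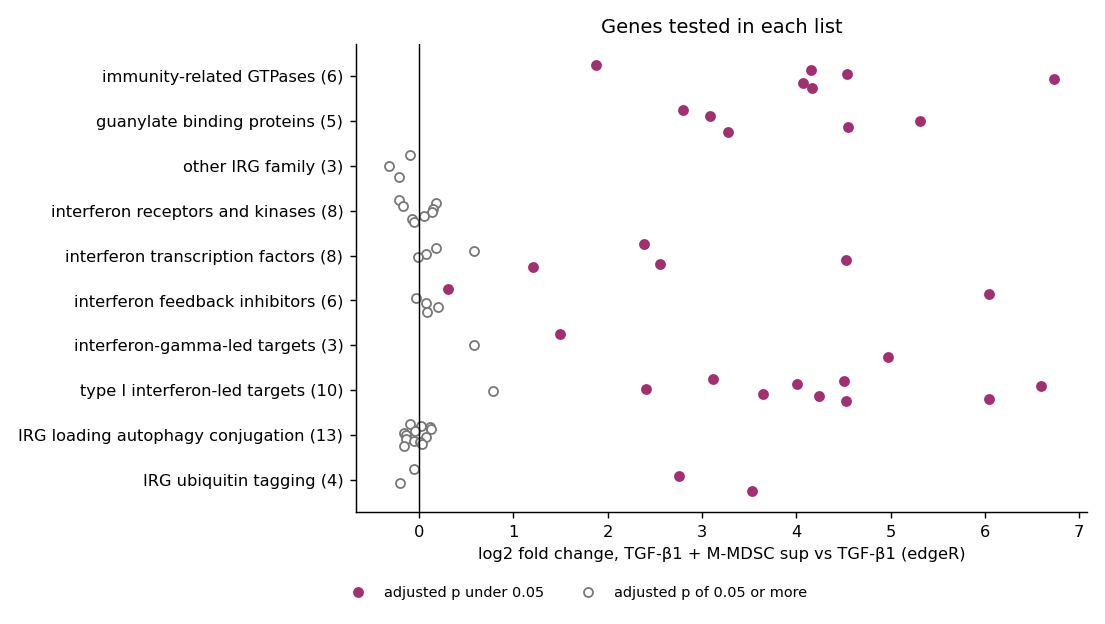
Log2 fold change with M-MDSC supernatant against TGF-β1 alone (x axis, edgeR) of every tested gene (points) of each list (y axis, number tested in brackets), filled where the adjusted p was under 0.05, genes let in by the supernatant groups included. The IRG genes (1.88 to 6.73), GBPs and type I interferon targets stand to the right, while receptors, kinases and autophagy genes stand around 0.

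Over the 12 libraries the genes whose log2(CPM + 1) values (CPM, counts scaled to library totals) ran most like the mean of the 6 members were Ifit3b (Pearson r 0.996), Ifit3 (0.993), Dhx58 (0.991), Gm43302 (0.990) and Tap2 (0.989). For the Tgtp sum they were Ifit1 (0.984), Lgals9 (0.984), Ifit1bl2 (0.983), Ifit3 (0.983) and Gbp2b (0.981). Ifit genes encode RNA-binding antiviral proteins, Dhx58 a sensor of viral RNA and Tap2 a peptide transporter of antigen presentation. These correlations describe 12 libraries in 4 groups and carry no test. Ifit3, the gene in both sets, had mean FPKM of 9.97 untreated, 1.29 with TGF-β1, 12.3 with G-MDSC and 29.9 with M-MDSC supernatant. Ifit1, like the Tgtp genes, had a lower mean FPKM with G-MDSC supernatant (23.5 ± 0.852) than untreated (26.3 ± 0.937) and a higher one with M-MDSC supernatant (37.3 ± 1.62, SD, n = 3), values that were not tested against untreated.

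The labelled cell type was checked against its markers. MSC markers summed to an FPKM between 499.3 and 597.9 in all libraries, with Itgb1 the largest term. Eng (CD105) stayed under the level filter, at a mean FPKM of 0.766 over the 12 libraries. Of the 6 others, 3 rose and 3 fell with TGF-β1, where 16.1% of all tested genes were called higher and 17.9% lower. Those that rose were Itgb1 (0.66, edgeR, adjusted p = 8.39e-08), Cd44 (0.48, 0.00347) and Pdgfrb (0.52, 5.90e-06), and Pdgfra (-1.44, 2.69e-07) and Thy1 (-0.99, 0.000679) fell. Ly6a (Sca-1), itself interferon-inducible, fell as well, from 245.1 ± 5.35 untreated to 16.2 ± 2.92 with TGF-β1 (log2 fold change -3.86, edgeR, adjusted p = 5.15e-09), and was at 67.0 ± 3.20 with G-MDSC and 92.5 ± 10.2 with M-MDSC supernatant. Of the markers that MSCs should lack, Ptprc, Itgam, Kit and Pecam1 did not reach the level filter. Cd34, which mouse MSCs can carry, was at 63.1 ± 2.93 untreated and 16.0 ± 2.10 with TGF-β1.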

How the data were processed

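Poly(A) RNA of 12 MSC samples was sequenced as stranded paired reads of 150 bases. Per the study's methods, the authors checked reads with fastp, mapped them with HISAT2 to the mouse genome GRCm38, and used StringTie and then gffcompare for transcript assembly and merging. The submitters' processing notes name HISAT2 2.0.4, StringTie 1.3.4d and cutadapt 1.9, the last with no role given. The deposited table holds whole-number read counts and FPKM per gene for each library, and no pooled columns. The counting tool and its handling of reads that fit several genes are not given in the sources used here. Of nonzero counts up to 12, 44.3% were 4, 8 or 12.

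Groups were taken from the sample labels. Genes reaching an FPKM of 1 in 3 or more libraries, 12016 in number, were fitted together over all 12 libraries with edgeR 4.0.16 (R 4.3.3, TMM scaling, quasi-likelihood F test, tested on simulated data), and p-values were adjusted by Benjamini-Hochberg over all tested genes, with a threshold of 0.05. Precision is limited by 3 libraries a group. Intervals and floors cover counting error only. Replicates were compared, and no pair differed as little as sampling noise alone would give. Members and gene lists were chosen with earlier results of these data known. An item of the transcription factor list is not reported here and is left out of its counts. Named were all members, and from each list the up to 4 genes of highest mean FPKM and genes called where few were. Genes at 0 throughout were named too, of the ligands only Ifng and Ifnb1. Other list members are named after their values were seen. Alternatives were DESeq2 1.42.0, limma 3.58.1 on log2(FPKM + 1) and log2(FPKM + 0.1), other scalings and filters, counts divided by 4, 2 groups only, a replicate block and each library left out. Coding sequences came from GENCODE M21 and promoters from RefSeq, read with Biopython 1.88.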

Additional observations from a re-analysis of the deposited data

Results flagged for a closer look

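For Iigp1, Tgtp1 and the Tgtp sum the 2 supernatants lay on opposite sides of the untreated level, every M-MDSC library lying above and every G-MDSC library below all untreated libraries. Mean FPKM over untreated was 1.60 with M-MDSC and 0.702 with G-MDSC supernatant for Iigp1, 1.81 and 0.744 for Tgtp1, and 1.96 and 0.785 for the sum. The difference between both effects is the contrast on which the Tgtp genes were picked, it was not tested, and genes picked for it fall on either side of the untreated level more easily than others. Iigp1 passed the filter on level through the M-MDSC group and, in edgeR, the threshold on neither side of untreated (adjusted p = 0.179 with M-MDSC and 0.377 with G-MDSC supernatant). These values are therefore a description.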

How the results depend on the processing

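Against TGF-β1 alone, the 3 regulators were called with M-MDSC supernatant under every alternative that was run. With G-MDSC supernatant, the 5 members other than Iigp1 were called under every alternative. In the fit reported, 574 and 668 of 12016 tested genes were called in these comparisons. With TGF-β1 against untreated, Irgm1, alone at the level of the filter there, was called under every alternative but the study's rule. That rule is a fold over 2 or under 0.5 with an unadjusted p under 0.05. Against untreated, with all 6 members included as a description, 4 to 6 were called with M-MDSC supernatant (5 in the fit reported, Tgtp genes included). With G-MDSC supernatant 3 to 5 were called (4 in the fit reported). In that fit 4234 and 4187 of all tested genes were called. Of 922 recomputed results, 902 stayed the same by the measure used for each. For single genes this meant the same direction and side of the threshold, or a move under the replicate spread. For counts of genes called, small changes were allowed, so a member may have crossed the threshold. The M-MDSC against G-MDSC difference of Irgm2, 0.09 on the log2 scale, turned to -0.10 with limma on log2(FPKM + 1), to -0.17 on log2(FPKM + 0.1), to -0.14 without M-MDSC replicate 1 and to -0.22 without M-MDSC replicate 2, and was 0.51 without the low replicate 3. Against untreated, Iigp1 passed the threshold under 6 alternatives with M-MDSC supernatant, DESeq2 among them (0.72). Iigp1 was let in by the M-MDSC group, so these passes are a description. With G-MDSC supernatant it passed under 3 (-0.47 by DESeq2, adjusted p = 0.0415), its sign kept throughout. The labels do not say whether replicate numbers pair the samples. No pairing was visible, as same-numbered libraries of different groups had a mean correlation of deviations of 0.0017 (lowest -0.098, highest 0.086). With a replicate block the number of members called was unchanged in each of the 5 comparisons. Irgm2 with M-MDSC supernatant against untreated was then 1.59 (edgeR, adjusted p = 0.0212). Among the members, depth limited only Iigp1 with TGF-β1, at 0 to 12 counts.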
